A study of Mus musculus with 16 samples.

Results

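The genes described here encode the enzymes and binding proteins that write, read or remove DNA methylation, histone H3 lysine 9 methylation and the Polycomb marks. They were taken as a list of 34 gene symbols with these roles, and every probe that the platform annotation gave to one of these symbols was considered. Of the 34 genes, 31 had a probe, with 52 probes in all among the 25697 probes of the array. Tet1, Tet2 and Zfp57 had no probe under these symbols and were not analysed here. Probes with a log2 value over 7 on at least 4 of the 16 arrays were tested, which kept 25 of the 52 probes and left 21 of the listed genes among the 6999 genes tested.

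RNA from whole E9.5 mouse embryos of the FVB/n strain was measured on Illumina MouseRef-8 expression BeadChips, with 1 array per sample. The 2 genotypes were wildtype and homozygous MommeD1 (a nonsense allele of Smchd1), and each was represented by 4 female and 4 male arrays. All embryos came from crosses between heterozygous parents, the mutants carried the allele in every tissue, and the yolk sacs had been taken for genotyping. No source used here states which embryos were littermates, and the p-values measure the spread between these samples. Each of the 2 chips, as the labels name them, held 2 arrays of every group (replicates 1 and 2 on chip 1, replicates 3 and 4 on chip 2).

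Smchd1 itself, a noncanonical SMC protein needed for X inactivation, was measured first as a check of the labels. Its log2 value was 7.48 ± 0.12 (SD, n = 4) in MommeD1 females against 9.91 ± 0.09 (SD, n = 4) in wildtype females, and 7.48 ± 0.10 against 9.82 ± 0.07 in males. The difference was -2.43 in females (limma adjusted p = 6.12e-15) and -2.34 in males (limma adjusted p = 1.24e-14), in the direction of the labels on all 16 arrays. The deposited values had almost the same distribution on every array. They had been normalised between arrays, so this cannot show whether an array stood apart before that step. In 3 arrays the mean of 8 measured yolk sac endoderm transcripts, relative to their mean over all arrays, was high, at 2.11 (MommeD1 female 2), 1.19 (MommeD1 male 1) and 1.15 (wildtype male 3), and the values of the called genes after leaving out these arrays are given below.

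DNA methylation is laid down by the de novo enzymes Dnmt3a and Dnmt3b, copied at replication by Dnmt1 with its partner Uhrf1, and read by methyl-CpG binding proteins. Methylation of histone H3 at lysine 9 is read by the HP1 proteins, of which Cbx1 encodes HP1 beta, and Polycomb complexes act through methylation of lysine 27 by Ezh2 and ubiquitylation of H2A by Ring1 or Rnf2. These marks are known for their roles in X inactivation and imprinting in the early mouse embryo, which are processes that also involve Smchd1.

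The start-site regions of 4 of the 5 genes that passed the test in at least 1 comparison are shown because their transcript levels are what the results below turn on, and because CpG dinucleotides are the substrate of the DNA methylation enzymes on the list. Each runs 5′ to 3′ from 250 bases before to 50 bases after the RefSeq start (build GRCm38.p6), with every CpG in capitals.
Mbd4, chr6:115853292-115853591, minus strand: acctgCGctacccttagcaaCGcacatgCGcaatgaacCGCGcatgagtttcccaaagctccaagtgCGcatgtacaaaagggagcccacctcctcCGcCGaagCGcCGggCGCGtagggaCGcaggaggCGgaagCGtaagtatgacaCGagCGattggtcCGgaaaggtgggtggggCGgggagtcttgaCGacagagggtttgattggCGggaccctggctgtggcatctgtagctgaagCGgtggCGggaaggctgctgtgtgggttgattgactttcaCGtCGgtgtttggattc
Cbx1, chr11:96788885-96789184, plus strand: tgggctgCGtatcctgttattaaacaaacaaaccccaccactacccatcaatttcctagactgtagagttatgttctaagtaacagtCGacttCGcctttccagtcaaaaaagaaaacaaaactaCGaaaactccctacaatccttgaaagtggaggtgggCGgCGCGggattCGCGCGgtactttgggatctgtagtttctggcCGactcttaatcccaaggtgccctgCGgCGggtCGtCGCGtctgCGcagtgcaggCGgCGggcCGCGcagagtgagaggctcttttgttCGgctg
Ezh2, chr6:47594981-47595280, minus strand: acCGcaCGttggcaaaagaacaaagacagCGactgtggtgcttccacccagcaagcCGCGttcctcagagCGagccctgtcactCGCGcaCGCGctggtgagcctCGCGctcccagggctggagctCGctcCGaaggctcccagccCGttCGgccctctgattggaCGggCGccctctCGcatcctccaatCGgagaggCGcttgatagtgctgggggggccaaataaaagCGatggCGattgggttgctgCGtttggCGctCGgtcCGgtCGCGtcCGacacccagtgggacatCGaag
Ring1, chr17:34024631-34024930, minus strand: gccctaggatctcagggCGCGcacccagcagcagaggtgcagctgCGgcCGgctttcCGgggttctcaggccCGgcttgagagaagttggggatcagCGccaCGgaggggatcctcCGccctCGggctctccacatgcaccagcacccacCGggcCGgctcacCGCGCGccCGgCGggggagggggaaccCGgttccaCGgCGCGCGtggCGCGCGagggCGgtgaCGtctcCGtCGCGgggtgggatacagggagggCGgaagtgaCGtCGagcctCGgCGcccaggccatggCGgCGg

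The Mbd4 window held 25 CpG dinucleotides and the Cbx1 window 22. As many or more were found in 18.4% and 23.1% of the 32851 RefSeq windows of the same length. The Ezh2 window held 31 (10.6% of windows had as many or more) and the Ring1 window 37 (5.6%). RefSeq gave 37 such windows for 27 of the 31 listed genes with a probe, and their median was 28 CpGs against 7 over all windows. The letters CCAAT, searched on both strands, were found in 37.8% of the windows of the listed genes and 37.4% of all windows. The letters TTTNNCGC, also searched on both strands, were found in 21.6% and 5.2%. They include a CpG, and the windows were not matched for CpG or GC content (median GC 66.3% and 52.7%). The windows of Mbd4 and Ezh2 held CCAAT 2 and 3 times and those of Cbx1 and Ring1 did not hold these letters. Of these 4 windows, TTTNNCGC was found in that of Ezh2. A match describes the letters in the window and was not tested as a binding site.

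In female embryos, transcripts of Mbd4 and Cbx1 were lower in MommeD1 homozygotes than in wildtypes, by 1.275-fold and 1.21-fold, and these were the 2 listed genes of the 21 tested that passed an adjusted p of 0.05 (Benjamini-Hochberg over all 6999 genes, limma). Both were lower, where 3.33% of all genes tested were called lower, 4.14% higher and 7.47% in either direction. Here and below, the shares of all genes tested include 236 X-linked genes, and no listed gene tested is X-linked. In males, 0 of the 21 passed (limma), where 0.114% of all genes tested were called at the same adjusted p. An unadjusted p under 0.05 (limma) was seen for 6 of the 21. The share of all genes at that unadjusted level is not given here, so 0.114% is not its background. When the female and male differences were averaged, 4 of the listed genes were called lower (Mbd4, Cbx1, Hdac1 and Ezh2) and 1 was called higher (Ring1). In that comparison 5.26% of all genes were called lower, 5.74% higher and 11.0% in either direction. The mean comparison uses the same arrays as the female and male comparisons and is not independent of them. This list and the further lists below were chosen with earlier results of these data known. The counts beside the shares of all genes are therefore descriptive.

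Over the listed genes as a whole the differences were small. The median log2 difference over the 21 genes was -0.03 in females, -0.05 in males and -0.05 for the mean, against -0.01, 0.00 and 0.00 over all genes tested. The difference was negative for 15 of 21 in females and for 15 of 21 in males, beside 3666 and 3473 of the 6999 genes tested. The SD of a gene within a group of 4 arrays ranged from 0.024 to 0.232 with a median of 0.097, so a log2 difference of 0.1 was of the size of the spread between embryos of 1 group.

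**Figure D1:**
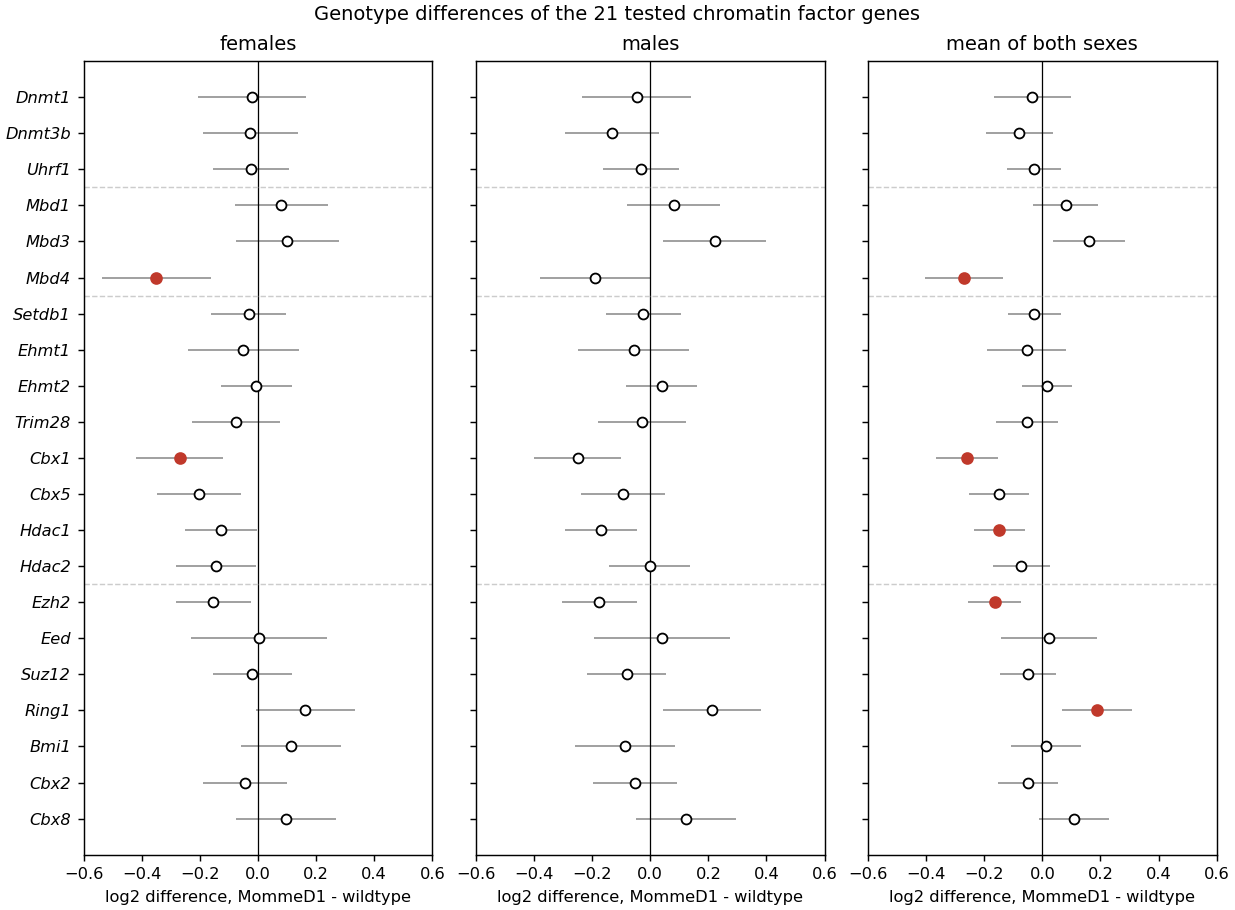
Log2 difference between MommeD1 and wildtype embryos (x axis) for the 21 tested genes (y axis, grouped by role between the dashed lines) in females, in males and as the mean of both sexes. Lines are 95% intervals from limma and filled points passed an adjusted p of 0.05, which were Mbd4 and Cbx1 in females, none in males, and Mbd4, Cbx1, Hdac1, Ezh2 and Ring1 for the mean.

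Among the methyl-CpG binding proteins, Mbd4, a thymine glycosylase that repairs mismatches left by deamination of methylated cytosine, showed the largest difference of the listed genes in females. Its log2 values were 7.86, 7.83, 8.06 and 8.16 in MommeD1 females. The values in wildtype females were 8.24, 8.28, 8.45 and 8.35. All 4 mutant arrays were below all 4 wildtype arrays, and the groups did not overlap. The fitted difference was -0.35 ± 0.09 (SE, limma adjusted p = 0.0224). How many of all genes tested were without overlap between groups was not counted, here or below.

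In males the Mbd4 values were 8.42, 8.13, 8.02 and 8.20 in mutants and 8.39, 8.21, 8.43 and 8.49 in wildtypes. Here 3 of 4 mutant arrays lay below the lowest wildtype array, and MommeD1 male 1 lay within the wildtype range. The difference was -0.19 ± 0.09 (SE, limma adjusted p = 0.440). For the mean of both sexes it was -0.27 ± 0.06 (SE, limma adjusted p = 0.0124), with 7 of 8 mutant arrays below the lowest of the 8 wildtype arrays. The effect in females minus that in males was -0.16, with a 95% interval from -0.43 to 0.10, and was not significant (limma adjusted p = 0.811).

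The Mbd4 difference in females was -0.41 within chip 1 and -0.29 within chip 2, and -0.35 with chip as a block (limma adjusted p = 0.182, 0.157 and 0.015). The call in females was lost on leaving out MommeD1 female 1 (-0.31, limma adjusted p = 0.0612), MommeD1 female 2 (-0.30, 0.0698), wildtype female 3 (-0.31, 0.0738) or wildtype female 4 (-0.34, 0.0526). After leaving out the 3 arrays with high yolk sac transcripts the female difference was -0.30 (limma adjusted p = 0.0531) and the mean difference -0.28 (limma adjusted p = 0.0126). The mean call held on leaving out any 1 of the 16 arrays (largest adjusted p 0.0295). It was also present in chip 2 alone (-0.32, limma adjusted p = 0.0421) and not in chip 1 alone (-0.22, 0.253).

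The other tested genes of the Mbd family did not pass. Mbd3, a subunit of the NuRD deacetylase complex, differed by 0.10 in females, 0.22 in males and 0.16 ± 0.06 (SE) for the mean, which did not pass (limma adjusted p = 0.0857). Mbd1, which binds methylated CpG and recruits H3K9 methyltransferase activity, differed by 0.08 in both sexes (95% interval for the mean -0.03 to 0.19). The probe of Mbd2, another methyl-CpG reader, did not pass the filter.

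**Figure D2:**
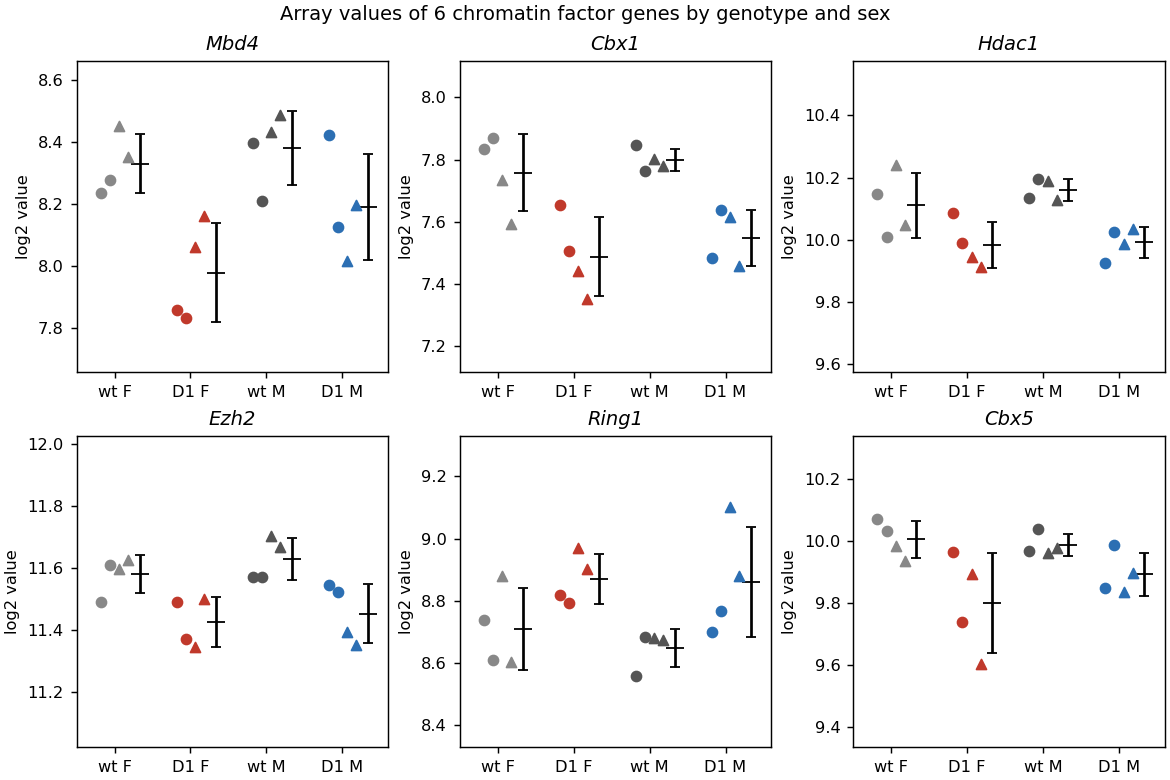
Log2 value (y axis, each panel spanning 1 log2 unit) of 6 genes on each of the 16 arrays, by group (x axis; wt, wildtype; D1, MommeD1; F, female; M, male). Circles are arrays of chip 1 and triangles of chip 2, and the black line and bar give the mean and SD of 4 arrays. Mbd4 does not overlap between female groups, and Cbx1, Hdac1, Ezh2 and Ring1 do not overlap between male groups. The share of all genes tested without overlap was not counted, and no listed gene passed in males.

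Among the factors of H3K9 methylation, Cbx1, whose product binds methylated H3K9 in heterochromatin, was lower in females and for the mean of both sexes. Its log2 values were 7.65, 7.51, 7.44 and 7.35 in MommeD1 females and 7.84, 7.87, 7.73 and 7.59 in wildtype females. In these groups 3 of 4 mutant arrays were below the lowest wildtype array, and MommeD1 female 1 overlapped with wildtype female 4. The difference was -0.27 ± 0.07 (SE, limma adjusted p = 0.0265).

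In males, Cbx1 gave 7.48, 7.64, 7.62 and 7.46 in mutants and 7.85, 7.76, 7.80 and 7.78 in wildtypes, and the groups did not overlap. The difference of -0.25 ± 0.07 (SE) did not pass over all genes (limma adjusted p = 0.198). The mean difference was -0.26 ± 0.05 (SE, limma adjusted p = 0.00383), with 5 of 8 mutant arrays below the lowest wildtype array. It was -0.26 within chip 1 and -0.26 within chip 2 (limma adjusted p = 0.135 and 0.0719), and -0.25 after leaving out the 3 arrays with high yolk sac transcripts (0.0176). Leaving out any 1 array kept the mean call (largest adjusted p 0.00991).

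The Cbx1 call in females alone was less stable. It was lost on leaving out wildtype female 1 (-0.24, limma adjusted p = 0.0711), wildtype female 2 (-0.23, 0.0765), wildtype female 3 (-0.28, 0.0554), MommeD1 female 2 (-0.28, 0.0534), MommeD1 female 3 (-0.26, 0.0637) or MommeD1 female 4 (-0.23, 0.0832). It was also lost after leaving out the 3 arrays with high yolk sac transcripts (-0.28, limma adjusted p = 0.0642). With chip as a block it was -0.27 (limma adjusted p = 0.0134).

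Cbx5, which encodes HP1 alpha, had log2 values of 9.96, 9.74, 9.89 and 9.60 in MommeD1 females against 10.07, 10.03, 9.98 and 9.93 in wildtype females. Its male values were 9.85, 9.99, 9.83 and 9.90 in mutants and 9.97, 10.04, 9.96 and 9.98 in wildtypes. In each sex 3 of 4 mutant arrays were below the lowest wildtype array of that sex, and the groups overlapped. The difference of -0.20 in females (limma adjusted p = 0.0720) and -0.15 ± 0.05 (SE) for the mean (limma adjusted p = 0.0547) did not pass. The probe of Cbx3, which encodes HP1 gamma, did not pass the filter.

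Hdac1, a deacetylase shared by the NuRD and Sin3 complexes, was lower in the mean comparison. Its log2 values were 10.09, 9.99, 9.95 and 9.91 in MommeD1 females and 10.15, 10.01, 10.24 and 10.05 in wildtype females, which overlapped. In males, the values of 9.92, 10.03, 9.99 and 10.03 in mutants were all below the wildtype values of 10.13, 10.19, 10.19 and 10.13. The mean difference was -0.15 ± 0.04 (SE, limma adjusted p = 0.0302). The call was lost in 7 of the 16 fits that left out 1 array (wildtype female 1 or 3, wildtype male 2 or 3, MommeD1 female 3 or 4, MommeD1 male 3), with differences between -0.15 and -0.13 and adjusted p between 0.0505 and 0.0642. It was -0.11 in chip 1 alone, -0.18 in chip 2 alone, and -0.13 after leaving out the 3 arrays with high yolk sac transcripts (limma adjusted p = 0.435, 0.149 and 0.106). Hdac2, its close paralogue, differed by -0.14 in females, 0.00 in males and -0.07 for the mean (95% interval -0.17 to 0.03).

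The tested writers of H3K9 methylation and their corepressor did not pass the test in any comparison. Setdb1, the methyltransferase recruited by Trim28, differed by -0.03 for the mean of both sexes (95% interval -0.12 to 0.06), and Trim28 by -0.05 (-0.16 to 0.05). Ehmt2, the G9a methyltransferase, differed by 0.02 (-0.07 to 0.10) and its partner Ehmt1 by -0.05 (-0.19 to 0.08). A second Ehmt1 probe gave -0.15 (limma adjusted p = 0.0783) and a second Ehmt2 probe 0.04 (limma adjusted p = 0.557). The 3 probes of Suv39h2, another H3K9 methyltransferase, did not pass the filter.

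**Figure D3:**
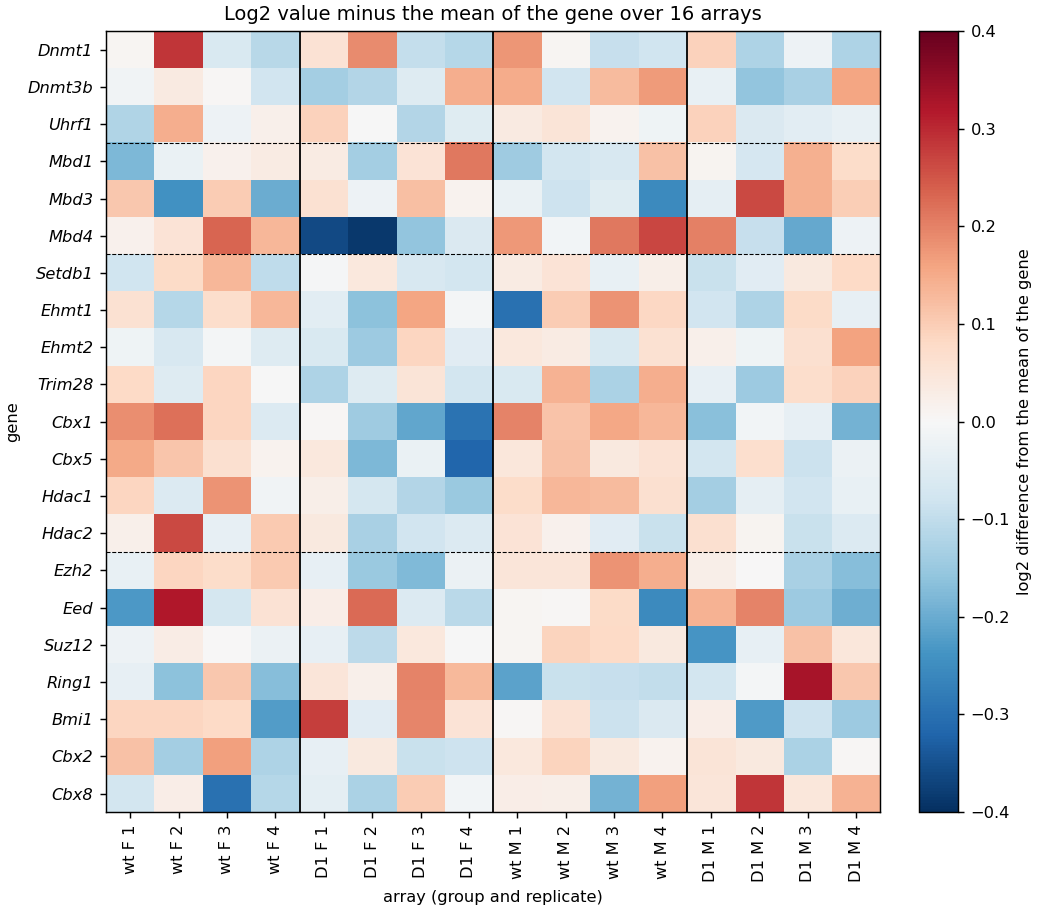
Log2 value minus the mean of each gene over the 16 arrays (colour) for the 21 tested genes (y axis) on every array (x axis; wt, wildtype; D1, MommeD1; F, female; M, male; with the replicate number). Dashed lines separate the roles and the values run from -0.385 to 0.329. The Cbx1 row is above its mean on 7 of 8 wildtype arrays.

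Among the Polycomb genes, Ezh2, the H3K27 methyltransferase of PRC2, and Ring1, an E3 ubiquitin ligase of PRC1, differed in opposite directions. Ezh2 had log2 values of 11.49, 11.37, 11.35 and 11.50 in MommeD1 females and 11.49, 11.61, 11.60 and 11.63 in wildtype females, where MommeD1 female 4 overlapped with wildtype female 1. Its male values were 11.55, 11.52, 11.39 and 11.35 in mutants, all below the wildtype values of 11.57, 11.57, 11.70 and 11.67. The mean difference was -0.16 ± 0.04 (SE, limma adjusted p = 0.0226).

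Within chip 1 the Ezh2 difference was -0.08 and within chip 2 -0.25 (limma adjusted p = 0.588 and 0.0671). It was -0.16 after leaving out the 3 arrays with high yolk sac transcripts (limma adjusted p = 0.0542), and the call held on leaving out any 1 array (largest adjusted p 0.0488). A second Ezh2 probe that passed the filter had the opposite sign, at 0.08 for the mean (limma adjusted p = 0.466), so the 2 probes of this gene disagreed. The other core subunits of PRC2 did not pass the test. Eed, which binds trimethylated H3K27, differed by 0.02 (95% interval -0.14 to 0.19) and Suz12, the scaffold of the complex, by -0.05 (-0.15 to 0.05). Both probes of Ezh1, the alternative methyltransferase, failed the filter.

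Ring1 was the listed gene called higher, and only for the mean of both sexes. Its log2 values were 8.82, 8.79, 8.97 and 8.90 in MommeD1 females and 8.74, 8.61, 8.88 and 8.60 in wildtype females, which overlapped through wildtype female 3. In males the values were 8.70, 8.77, 9.10 and 8.88 in mutants and 8.56, 8.68, 8.68 and 8.67 in wildtypes, and the groups did not overlap. The mean difference was 0.19 ± 0.06 (SE, limma adjusted p = 0.0401), at 0.12 within chip 1 and 0.25 within chip 2 (0.400 and 0.112). The call held without MommeD1 female 1 or 2, MommeD1 male 1 or 2, or wildtype female 3. It was lost in the other 11 fits that left out 1 array, with differences between 0.15 and 0.19 and adjusted p between 0.0520 and 0.0817. After leaving out the 3 arrays with high yolk sac transcripts it was 0.23 (limma adjusted p = 0.0305).

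The remaining PRC1 genes did not pass the test in any comparison. Bmi1, a core subunit with Ring1, differed by 0.11 in females and -0.09 in males (95% interval for the mean -0.11 to 0.13). The chromodomain subunits Cbx2 and Cbx8 differed by -0.05 (-0.15 to 0.05) and 0.11 (-0.01 to 0.23) for the mean. The probes of Rnf2, the other E3 ligase of the complex, and of Cbx7 did not pass the filter.

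The DNA methylation enzymes measured here showed no difference that passed the test, in females, males or both. Dnmt1 differed by -0.02 in females and -0.05 in males, and by -0.03 for the mean (95% interval -0.17 to 0.10). Uhrf1 differed by -0.03 for the mean (-0.12 to 0.06), with a second probe at -0.12 (limma adjusted p = 0.425). Dnmt3b differed by -0.03 in females and -0.13 in males, and by -0.08 for the mean (-0.19 to 0.04). The probes of Dnmt3a, of its cofactor Dnmt3l, of the remodeller Hells and of the dioxygenase Tet3 did not pass the filter, so that the 3 tested genes are not the whole of this group.

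In all, 10 genes with a probe had only dim probes, with no array over 7. Together with dim probes of tested genes this made 27 probes with a mean log2 value between 5.55 and 6.77. Fitted with all probes of the array, 4 of the 27 had an unadjusted p under 0.05 in females, 0 in males and 3 for the mean, and the smallest adjusted p was 0.153, 0.699 and 0.0741. No difference is drawn from them.

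The genotype effect did not differ detectably between the sexes for any listed gene. The effect in females minus that in males ran from -0.16 (Mbd4) to 0.20 (Bmi1), and 0 of 21 passed (limma, 0 at an unadjusted p under 0.05, smallest adjusted p 0.702), where 0.357% of all genes tested were called. With 4 arrays a group, this does not show that the effects were equal. Among wildtype embryos, female minus male differences of the listed genes ran from -0.12 (Cbx8) to 0.11 (Hdac2), and 0 of 21 passed (limma, 0 at an unadjusted p under 0.05), where 0.0714% of all genes tested were called. These comparisons share arrays with those above. None of the listed genes tested is X-linked.

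Further genes of the same pathways were taken from 4 lists, and their counts stand beside the shares of all genes tested that were called lower (3.33% in females, 5.26% for the mean) or higher (4.14% and 5.74%). Of the 19 tested in the DNA methylation list (34 on the list, 26 with a probe, 1 of the 19 X-linked), 0 passed in females or for the mean (limma, with 3 and 1 at an unadjusted p under 0.05). Of 23 tested in the H3K9 and heterochromatin list (45 on the list), Morc2a, which acts with the HUSH silencing complex, fell by 0.32 in females (limma adjusted p = 0.0109) and by 0.25 for the mean (0.00466). Lrif1, which binds HP1 and Smchd1, rose by 0.23 for the mean only (limma adjusted p = 0.0150). Both genes kept these calls on leaving out any 1 array (largest adjusted p 0.0440). After leaving out the 3 arrays with high yolk sac transcripts, Morc2a differed by -0.32 in females and -0.27 for the mean (limma adjusted p = 0.0323 and 0.01) and Lrif1 by 0.23 for the mean (0.0361).

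Of 22 further Polycomb genes tested (42 on the list), 3 were X-linked. In females 2 of the 22 were called lower and for the mean 5, and 0 were called higher. Of all genes tested, 3.33% and 5.26% were called lower. Phc2, a PRC1 subunit, differed by -0.24 in females (limma adjusted p = 0.0306) and -0.19 for the mean. Csnk2a1, a kinase subunit found in a PRC1 complex, differed by -0.25 in females (limma adjusted p = 0.0304) and -0.18 for the mean. Its group means lay close to the filter of 7, at 6.84 in MommeD1 and 7.09 in wildtype females. In males they were 6.98 and 7.09. The PRC2 accessory subunits Mtf2 (-0.18) and Aebp2 (-0.21) and the PRC1 subunit Pcgf3 (-0.19) passed for the mean alone. With no filter, Csnk2a1 lost its call in females (-0.25, limma adjusted p = 0.0763) and for the mean. The female call of Phc2 (-0.24, limma adjusted p = 0.0834) and the mean call of Pcgf3 were also lost with no filter. On leaving out 1 array, the female calls were lost without wildtype female 2 or 3 or MommeD1 female 2 or 4 for Phc2 (adjusted p up to 0.0968), and without these or wildtype female 4 for Csnk2a1 (up to 0.0916). The mean call of Pcgf3 was lost without MommeD1 female 2, MommeD1 male 2 or 3, wildtype female 3 or wildtype male 4 (up to 0.0577). With the 3 arrays high in yolk sac transcripts removed, the female calls of Phc2 (-0.22, limma adjusted p = 0.0787) and Csnk2a1 (-0.22, 0.0987) and the mean call of Mtf2 (-0.18, 0.0510) were lost. The mean differences of Phc2, Csnk2a1, Aebp2 and Pcgf3 passed in that fit (limma adjusted p between 0.0281 and 0.0407). The median over these 22 genes was -0.06 in females, -0.07 in males and -0.06 for the mean, beside the medians over all genes given above.

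Of 22 genes tested for the NuRD, Sin3 and related deacetylase complexes (32 on the list), Rcor2, a corepressor of the LSD1 complex, rose by 0.39 in females (limma adjusted p = 0.00751) and 0.23 for the mean (0.0180). The Sin3 subunit Suds3 fell by 0.17 for the mean (limma adjusted p = 0.0296), a call lost without MommeD1 female 1 or 2, MommeD1 male 2, wildtype female 3 or wildtype male 1 or 2 (adjusted p up to 0.0638). Hdac6, a mainly cytoplasmic deacetylase, was 1 of 2 X-linked genes among the 22. It rose by 0.30 in females (limma adjusted p = 0.0489), and this call was lost in 11 of the 16 fits that left out 1 array (adjusted p up to 0.133). It was kept without MommeD1 female 3, MommeD1 male 1 or 3, wildtype female 2 or wildtype male 4. With the 3 arrays high in yolk sac transcripts removed, Rcor2 passed in females (0.35, limma adjusted p = 0.0207) and not for the mean (0.17, 0.0900). The calls of Suds3 (-0.17, limma adjusted p = 0.0580) and Hdac6 (0.24, 0.109) were lost in that fit. In males 0 genes of the 4 lists passed (limma, with 0, 2, 8 and 2 at an unadjusted p under 0.05 in the order given here). The share of all genes at that unadjusted level is not given for these counts either. Between wildtype sexes the X-linked H3K27 demethylase Kdm6a was higher in females by 0.53 (limma adjusted p = 1.32e-04).

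Markers of other cells that a dissected embryo can hold, and of cycling cells, were measured on the same arrays, since in a bulk sample fewer cells of a type and less RNA per cell cannot be told apart. Of 25 cell cycle genes 19 were tested, and 1 was called lower in females and 2 for the mean (beside 3.33% and 5.26% of all genes tested), with a median of -0.07 in females and -0.02 in males. Their mean level relative to all arrays was between -0.0342 and -0.00247 in MommeD1 females and between 0.00198 and 0.0265 in wildtype females, which did not overlap. In males it was between -0.0437 and 0.0200 in mutants and between 0.00257 and 0.0253 in wildtypes, which overlapped. Of 20 yolk sac endoderm markers 8 were tested and 0 passed (limma, with 0 at an unadjusted p under 0.05), and their mean level ranged from -0.87 to 2.11 in MommeD1 females and from -0.59 to 0.58 in wildtype females. In males it ranged from -0.88 to 1.19 in mutants and from -0.90 to 1.15 in wildtypes. Of 18 primitive erythroid markers 13 were tested, and 1 was called lower in females, with a median of -0.05 in females and 0.31 in males. Their mean level ranged from -0.26 to 0.70 in MommeD1 males and from -0.30 to 0.11 in wildtype males, and from -0.14 to -0.02 in MommeD1 females and from -0.24 to 0.30 in wildtype females. Of 14 decidua and trophoblast markers 2 passed the filter, 1 of them X-linked, and 0 were called in females, in males or for the mean (limma). Their mean level ranged from 0.02 to 0.33 in MommeD1 females and from -0.17 to 0.05 in wildtype females, which overlapped. In males it ranged from -0.21 to 0.12 in mutants and from -0.15 to 0.21 in wildtypes. The part of the cell cycle, erythroid, decidua and trophoblast transcripts in the differences above was not tested.

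**Figure D4:**
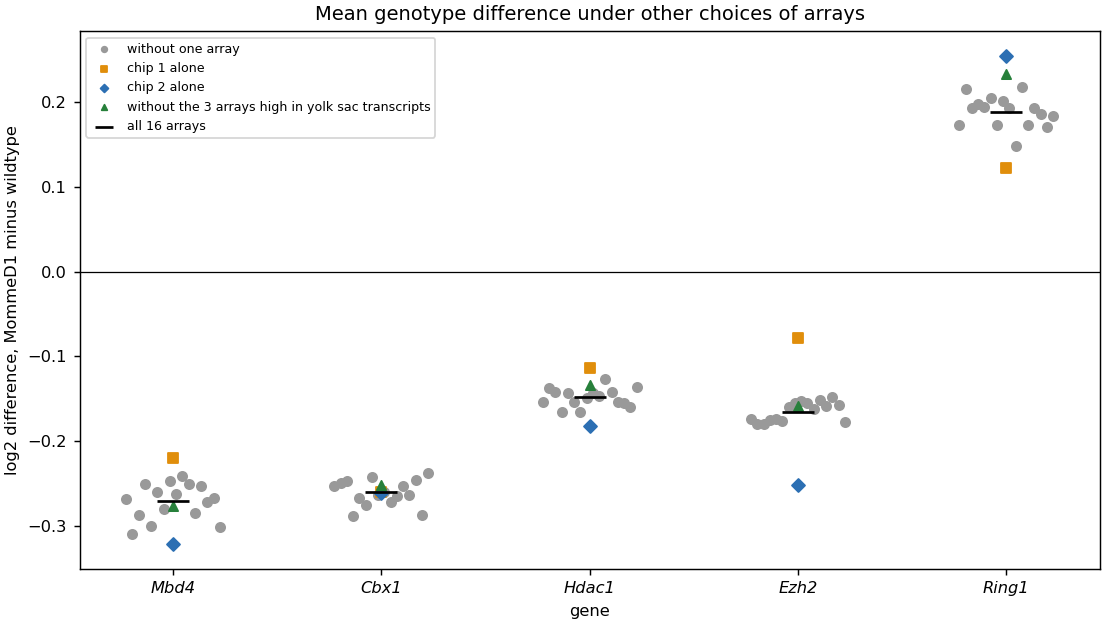
Mean log2 difference between MommeD1 and wildtype embryos over both sexes (y axis) for the 5 genes that passed the test (x axis), with all 16 arrays (black line), without each array in turn (grey), within each chip, and after leaving out the 3 arrays with high yolk sac transcripts. The sign of each of the 5 differences was the same under all of these choices, and the Cbx1 values within chip 1 and chip 2 were both -0.26.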

How the data were processed

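Embryo RNA was measured on single-colour Illumina arrays, 1 per sample. The authors processed the arrays in R with the beadarray and limma packages, per the methods, and deposited log2 values normalised between arrays. The background correction and the method of scaling were not given in the sources used here.

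Another deposited table of non-normalised signals held 32 columns that no label ties to a sample, and it was not used.

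Groups came from the sample labels. Probes were named from the platform annotation, without the probe quality filter named in the methods. Probes over 7 on at least 4 arrays were kept (9785 of 25697), and the probe with the highest mean represented its gene. Differences were tested with limma (version 3.58.1, R 4.3.3) on 4 group means over 16 arrays, with Benjamini-Hochberg adjustment over 6999 genes and a threshold of 0.05. The fit was tested on simulated data. Values per array are given for listed genes past the threshold in any comparison, or with an unadjusted p under 0.01 for the genotype. Of the pathway lists, the genes past the threshold are named. The members and lists were chosen with earlier results of these data known. Arrays carry no counts, and the number of arrays limits the precision. Alternatives were the filter, the choice of probes, chip and replicate block, each chip alone, array weights, moderation, centring, the groups in the fit and leaving out arrays.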

Additional observations from a re-analysis of the deposited data

Results flagged for a closer look

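Among 88 sets of 4 arrays (the tested listed genes and Smchd1, by group), 2 held an array far from the other 3 by Dixon's criterion, which chance gives in about 1 of 20 sets. The Ring1 value of wildtype male 1 was 8.56, where the other wildtype males lay between 8.67 and 8.68. The Bmi1 value of wildtype female 4 was 8.20, where the other wildtype females were at 8.51.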

How the results depend on the processing

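The counts of listed genes called were small and moved with the choices. In females the 2 called genes became 1 (Mbd4) with no filter or with only the 2 groups compared. With a filter at 8, Mbd4 passed and Cbx1 was not tested, since its only probe reached 7.87 on its highest array. The count was 0 in chip 1 alone, in chip 2 alone and without the 3 arrays high in yolk sac transcripts. Leaving out 1 array gave 0 to 2, with 0 without MommeD1 female 2 or wildtype female 3. For the mean of both sexes the 5 became 2 with no filter, 0 in chip 1, 1 in chip 2 and 3 without the 3 arrays, and 3 to 6 on leaving out 1 array. In males, for the difference between sexes and between wildtype sexes, the count was 0 under all alternatives run. The differences that had passed the test kept their sign, at the brightest probe of each gene (a second Ezh2 probe had the opposite sign, at 0.08 for the mean), under all alternatives run for them, and genes that had not passed were not refitted one by one.

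Over all genes, no filter gave 287 calls in females and 410 for the mean (523 and 770 otherwise). Chip 1 alone gave 25 in females, 3 in males, 19 for the mean, 0 for the difference between sexes and 2 between wildtype sexes, and chip 2 alone gave 42, 7, 91, 0 and 2. Without the 3 arrays there were 326 in females, 24 in males and 14 for the difference. In males, where 8 genes were called, a chip block gave 14, array weights 42 and trended, robust moderation 20. Leaving out 1 array gave 293 to 599 in females, 6 to 58 in males (58 without MommeD1 male 1), 519 to 858 for the mean, 16 to 27 for the difference and 5 to 6 between wildtype sexes.

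Replicate numbers are shared between groups, but same-numbered arrays did not deviate together (correlations from -0.39 to 0.40, over 0.1 in 9 of 24 pairs), and 4 of 16 arrays correlated best with their own number. A replicate block gave 2 listed genes in females and 5 for the mean, and 616, 8 and 887 genes in all in females, males and for the mean. The 10 genes with only dim probes could not be assessed.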
